A study of Mus musculus with 4 samples.

Results

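Neuroblasts are immature neurons. In the adult mouse forebrain most arise next to the lateral ventricle and migrate to the olfactory bulb, where they become GABA-releasing interneurons, and others arise in the dentate gyrus and become granule cells. While they migrate they carry doublecortin on their microtubules and the transcription factors Sox11 and Sox4, and the olfactory lineage also carries the homeobox factors of the ventral forebrain, Dlx1 and Dlx2 among them. The nuclei described here were picked for RNA of such genes and against RNA of the mitotic machinery. A nucleus was taken when at least 4 of the 7 genes Igfbpl1, Sox11, Dcx, Dlx1, Dlx2, Cd24a and Sox4 were detected, when Sox11 had at least 2 unique molecular identifiers (UMIs, each standing for 1 captured transcript), and when at most 1 of the 6 mitotic genes Top2a, Mki67, Cenpf, Cenpe, Aspm and Kif11 was detected. Of 50595 nuclei with at least 500 UMIs, at least 300 genes and at most 5% mitochondrially encoded UMIs, 57 met this rule. The nuclei were chosen by the measured counts of these genes, so their levels are a description and carry no test.

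The 57 nuclei went only in part with the name of non-dividing neuroblasts. Of the 10 shallowest, those under 5000 UMIs, 7 were higher in ventral forebrain factors than other GABA nuclei of that depth, all of them from in vivo libraries. All 10 were lower in the list of synaptic vesicle and mature neuron genes. In GABA-A receptor subunits 2 of the 10 lay above the GABA nuclei, and in ionotropic glutamate receptors 1 did. By median the GABA nuclei under 5000 UMIs were deeper than these members, and the part of depth was not tested. The 29 nuclei with 20000 UMIs or more were nearer to other GABA nuclei of the same depth in most gene groups, and every one of them held RNA of the mature neuron gene Rbfox3. All 57 are therefore called Sox11-rule nuclei below, and no other name is given to them.

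The nuclei came from whole brain without cerebellum of wild-type C57BL/6 mice aged 10 weeks, frozen on dry ice for 10 min, with at most 50 mg of tissue per extraction. Tissue was taken either in vivo, by craniotomy under isoflurane anaesthesia, or post-mortem, after cervical dislocation. Nuclei were then either fixed in 80% methanol at -20 °C for 30 min or left unfixed, and were captured in droplets with a kit that reads the 3' end of transcripts (SeekOne DD). Each of the 4 combinations (in vivo methanol, post-mortem methanol, in vivo unfixed, post-mortem unfixed) holds 1 library, so no difference between groups has a replicate check, no test was made and each ratio compares 2 libraries. Whether 1 brain gave both libraries of a harvest is not stated in the labels. The libraries held 75023578 UMIs (in vivo methanol), 82408017 UMIs (post-mortem methanol), 65591829 UMIs (in vivo unfixed) and 64312917 UMIs (post-mortem unfixed). All intervals are 95% intervals and cover counting error only.

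The Sox11-rule nuclei came mainly from the methanol libraries. The in vivo methanol library held 36 of them among 7649 nuclei, a share of 0.471% (Clopper-Pearson interval 0.330 to 0.651%). The post-mortem methanol library held 15 of 10792, or 0.139% (0.0778 to 0.229%). The in vivo unfixed library held 3 of 17854, or 0.0168% (0.00347 to 0.0491%), and the post-mortem unfixed library held 3 of 14300, or 0.0210% (0.00433 to 0.0613%). Methanol thus held the higher share within both harvests, 28.0 times the unfixed share in vivo (exact conditional interval 8.85 to 142) and 6.63 times post-mortem (1.87 to 35.7). In vivo harvest held 3.39 times the post-mortem share in the methanol pair (1.81 to 6.66), but 0.801 times in the unfixed pair (0.107 to 5.98), where 3 nuclei stand on each side. No member barcode occurred in more than 1 library. Among all kept nuclei, 7649 to 17854 per library, 61 to 209 barcodes were shared between pairs of libraries. With 3 to 36 members per library, the absence of shared member barcodes cannot show that members differ from other nuclei.

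Depth differed between the libraries in the same order as these shares within each harvest. The median kept nucleus had 8380 UMIs in vivo with methanol and 3206 in vivo unfixed, and 6541 post-mortem with methanol and 4018.5 post-mortem unfixed. The Sox11-rule nuclei were deeper still in 3 of the 4 libraries: their medians were 22878.5 UMIs (in vivo methanol), 42381 (post-mortem methanol), 10037 (in vivo unfixed) and 3239 (post-mortem unfixed). The deepest held 211717 UMIs, in the post-mortem methanol library. Scrublet, which compares each nucleus with simulated doublets of its library, marked 18 of the 36 nuclei in vivo with methanol, 8 of 15 post-mortem with methanol, 1 of 3 in vivo unfixed and 0 of 3 post-mortem unfixed. Among all kept nuclei it marked 10.7%, 8.95%, 15.2% and 12.7% in the same libraries. The part of doublets in these numbers was not tested further.

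**Figure D1:**
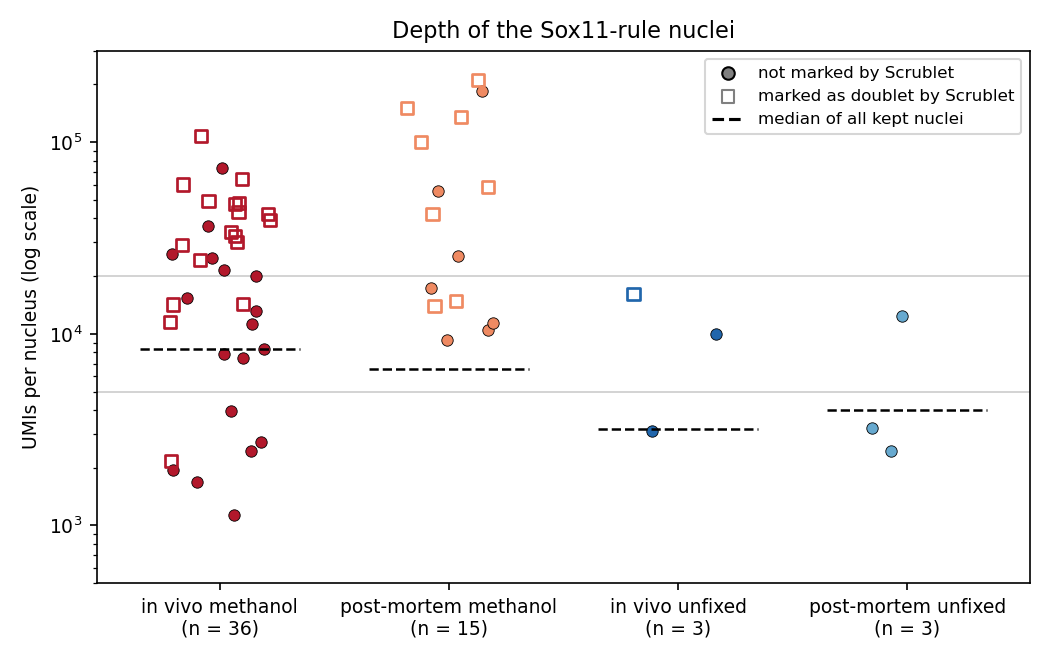
UMIs per nucleus (log scale) of each Sox11-rule nucleus in the 4 libraries. Filled circles were not marked by Scrublet, open squares were marked as doublets, dashed lines are the medians of all kept nuclei, and grey lines stand at 5000 and 20000 UMIs; most nuclei of both methanol libraries lie above their library's median.

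Within a library the share that met the rule depended on depth. In the in vivo methanol library 13.3% of the 30 nuclei with 50000 UMIs or more met it (4 nuclei), as did 2.26% of the 708 nuclei with 20000 to 50000 UMIs (16 nuclei), 0.256% at 10000 to 20000 UMIs (6 nuclei) and 0.138% at 5000 to 10000 UMIs (3 nuclei). The shares there were 0.438% at 2000 to 5000 UMIs (4 nuclei) and 0.204% at 500 to 2000 UMIs (each upper limit not included) (3 nuclei), so the order with depth turned at the low end. In the post-mortem methanol library 7 of the 35 nuclei with 50000 UMIs or more met the rule (20%), and 0 of 3975 nuclei under 5000 UMIs did, which allows a share of up to 0.0755%. When every nucleus was thinned to 2000 UMIs before the rule was applied, leaving out 1474 shallower nuclei in the in vivo methanol library, 2307 in the post-mortem methanol library, 5995 in the in vivo unfixed library and 4044 in the post-mortem unfixed library, the mean number meeting it over 20 draws was 1.75, 0, 0.4 and 0.85 in that order of libraries. At equal depth too few nuclei were left to compare the libraries.

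**Figure D2:**
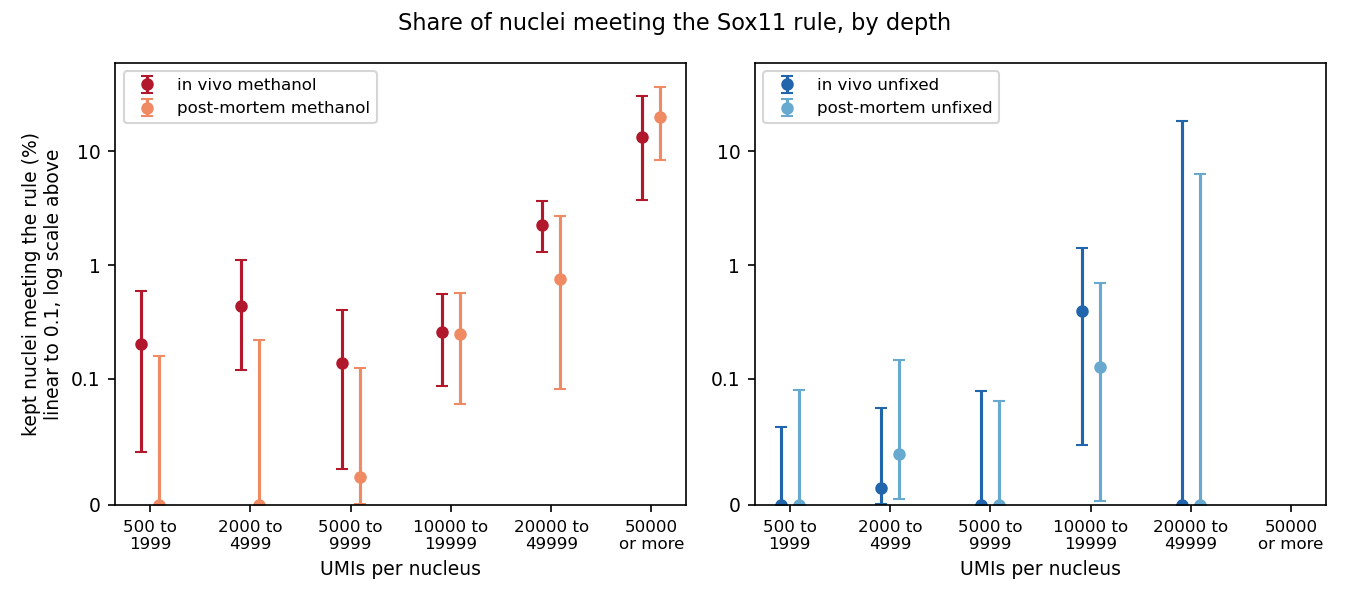
Share of kept nuclei that met the rule (%, linear up to 0.1 and log above) in 6 classes of UMIs per nucleus, with Clopper-Pearson intervals; methanol libraries left, unfixed libraries right. Shares in both methanol libraries were highest at 50000 UMIs or more (13.3% in vivo and 20% post-mortem), and a class with a single nucleus is not drawn.

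Most of the 57 nuclei lay at the edge of the rule. Of the 7 genes, 35 nuclei had 4, 21 had 5, 1 had 6 and 0 had all. Sox11 had 2 UMIs in 35 nuclei, 3 UMIs in 14 and 4 or more in 8. No mitotic gene was seen in 48 nuclei and 1 was seen in 9. Just outside lay 153 nuclei with 3 of the 7 genes, 113 nuclei with 1 Sox11 UMI and enough of the genes, and 3 nuclei with 2 mitotic genes. Altogether 25 nuclei met the neuroblast criteria with 2 or more mitotic genes.

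Sox11, a transcription factor of immature neurons (chromosome 12, 27334264 to 27342574, minus strand, mm10), had 156 UMIs in the members. Dcx, the microtubule-binding doublecortin, had 272 UMIs and was seen in 53 nuclei. Dlx1 (chromosome 2, 71528113 to 71533981, plus strand) was seen in 44 nuclei and Dlx2 (chromosome 2, 71543408 to 71546754, minus strand) in 18. Igfbpl1, whose product resembles proteins that bind insulin-like growth factors, was seen in 40 nuclei, Sox4 in 31 and Cd24a, a surface glycoprotein, in 8. The antisense gene Dlx1as overlaps Dlx1, and the strand setting of the counting is not given in the sources used here, so their reads cannot be told apart with certainty.

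The members held 4.89% of all Cd24a UMIs, 3.70% of Igfbpl1, 2.58% of Dlx1, 2.12% of Dlx2, 2.01% of Sox11, 1.37% of Sox4 and 1.01% of Dcx UMIs in the kept nuclei. In oligodendrocyte nuclei of the in vivo methanol library, which should lack Dlx1, 2.44% had a Dlx1 UMI and 5.72% a Sox11 UMI, against 19.2% and 25.2% of the other GABA nuclei of that library. GABA nuclei were those outside the neuroblast criteria with at least 2 UMIs of Gad1 and Gad2 together and a UMI of Slc32a1. They numbered 4655 in all.

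The members were split by depth at 5000 and 20000 UMIs, limits set after the values had been seen, and each class was compared with other GABA nuclei of the same depth class, weighted by library as the members were. The 10 nuclei under 5000 UMIs came from the in vivo methanol library (7), the in vivo unfixed library (1) and the post-mortem unfixed library (2), with 1136 to 3953 UMIs each, and 1 was marked by Scrublet. Their median was 2445 UMIs. GABA nuclei of that class were deeper, with medians of 4009 UMIs (in vivo methanol), 3793 UMIs (in vivo unfixed) and 4103.5 UMIs (post-mortem unfixed). Depth was thus matched only by class, and the part of this gap in the shallow comparisons was not tested. The 18 nuclei with 5000 UMIs or more but under 20000 came from the in vivo methanol (9), post-mortem methanol (6), in vivo unfixed (2) and post-mortem unfixed (1) libraries, and Scrublet marked 6. The 29 nuclei with 20000 UMIs or more came from the in vivo methanol (20) and post-mortem methanol (9) libraries, and Scrublet marked 20. A nucleus with few UMIs must spend a large part of them on the rule genes to be taken at all. The median sum of the 7 genes was accordingly 2252 CPM (UMIs of a gene per all UMIs of the nucleus or sum, on the usual counts-per-million scale) in the shallow class, 686 CPM in the middle class and 266 CPM in the deep class, and nothing is read from it.

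Transcription factors of the ventral forebrain lineage, 16 genes outside the rule, set the shallow nuclei apart. Together they reached 13600 CPM in the 10 shallow nuclei and 4631 CPM in GABA nuclei of that depth class. In GABA nuclei of the middle and deep classes the list stood at 2460 CPM and 2127 CPM, so its level differed with depth there too. Of the 16 genes 11 were higher in the shallow nuclei and 3 were lower. In this and later lists a gene without a UMI in the members counts as lower where GABA nuclei had one. The share of all genes higher or lower is not given here, so such counts have no background beside them. Meis2, a homeobox cofactor of striatal and olfactory interneurons, had 3340 CPM in shallow members (83 UMIs in 8 nuclei, exact Poisson interval 2660 to 4140) and 1334 CPM in GABA nuclei. Pbx3, a partner of Meis proteins, had 3541 CPM and 805 CPM. The ETS factor Etv1 had 362 CPM and 52.5 CPM. Dlx6os1, a long noncoding RNA of the Dlx5 and Dlx6 locus, had 1529 CPM in shallow members (9 of 10 nuclei) and 406 CPM in GABA nuclei. Sp8, a zinc finger factor of olfactory bulb interneurons, had 3 UMIs in 2 nuclei.

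The long noncoding RNA Sox2ot, whose locus contains Sox2, was among the most abundant RNAs of the shallow members, with 8973 CPM (7834 to 10231) against 1410 CPM in GABA nuclei. In the 7 shallow nuclei of the in vivo methanol library it had 2, 7, 8, 23, 30, 49 and 53 UMIs, in the in vivo unfixed nucleus 48 UMIs, and in the 2 post-mortem unfixed nuclei 1 and 2 UMIs. The 3 nuclei with the highest counts came from in vivo libraries, while both post-mortem nuclei were at the low end. Meis2 had 2 to 28 UMIs in each of the 8 in vivo nuclei and 0 in both post-mortem nuclei. The sum of the ventral forebrain list was 3555 to 25161 CPM per nucleus in the 8 shallow in vivo nuclei and 1231 and 1235 CPM in the 2 post-mortem nuclei, against 4631 CPM in GABA nuclei of that depth. The lowest in vivo nucleus and both post-mortem nuclei lay below that level, and single nuclei of so few libraries do not compare the harvests. Sox2ot, Dlx6os1 and Pbx3 overlap genes on the other strand in the annotation and are uncertain for the reason given for Dlx1. The same applies to Ccnd2, Cdh2, Gad1, Grin1, Il1rapl2, Ncam1, Nfib, Pax6, Ptprd, Rbfox3, Slc32a1 and Zic1, named elsewhere.

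Genes of the growing cytoskeleton were higher in the shallow nuclei as well. The 28 microtubule and growth-cone genes summed to 10180 CPM in shallow members and 5415 CPM in GABA nuclei of that depth, with 22 genes higher and 6 lower. Tubb3, the neuronal beta-tubulin, had 724 CPM and 178 CPM, and Tuba1a, the alpha-tubulin of young neurons, had 483 CPM and 88.5 CPM. Stmn1, which destabilises microtubules, had 402 CPM and 103 CPM, and Dpysl3, a collapsin response mediator, had 443 CPM and 72.2 CPM. Cytosolic ribosomal protein genes summed to 4989 CPM in shallow members and 2557 CPM in GABA nuclei, with 53 of 83 higher and 28 lower. In the same nuclei the 13 mitochondrially encoded genes summed to 1569 CPM, against 444 CPM in GABA nuclei, with 23 of their 39 UMIs in in vivo methanol nucleus 6 and 723 CPM without it. Their part in the ribosomal sum was not tested.

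Guidance and adhesion genes were mixed. Of 35 guidance and migration genes 14 were higher and 20 lower in the shallow members than in GABA nuclei, and the sums were 14646 CPM and 18908 CPM. Robo2, a receptor for the repellent Slit proteins, had 2535 CPM in shallow members and 693 CPM in GABA nuclei, whereas Robo1 had 443 CPM and 1921 CPM. Erbb4, the neuregulin receptor, had 5070 CPM and 3853 CPM, but its ligand Nrg1 had 282 CPM and 1874 CPM. Dab1, the adaptor of reelin signalling, had 121 CPM and 1228 CPM. Among 12 polysialic acid and adhesion genes 6 were higher and 6 lower: Ncam1, the carrier of polysialic acid, had 1368 CPM and 731 CPM, and N-cadherin (Cdh2) had 966 CPM and 206 CPM.

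Genes of the cell cycle other than the mitotic genes of the rule were present in the shallow members at low counts. Ccnd2, a cyclin of the G1 phase, had 604 CPM (15 UMIs in 5 nuclei, 338 to 995) and 66.8 CPM in GABA nuclei. Pola1, a subunit of DNA polymerase alpha, had 14 UMIs in 6 nuclei, or 563 CPM, against 83.6 CPM in GABA nuclei. The 18 DNA replication genes summed to 22 UMIs, or 885 CPM, in shallow members and 90.0 CPM in GABA nuclei, and 4 of the 10 nuclei had at least 2 of these genes. The 20 mitosis genes outside the rule had 6 UMIs in the shallow members. In vivo methanol nucleus 6 (numbered by depth) held 13 of the 22 replication UMIs, 8 of the 14 of Pola1 and 3 of the 6 mitosis UMIs, and without it the replication list stood at 407 CPM. The nucleus with most Ccnd2 held 7 of its 15 UMIs, and without it Ccnd2 stood at 345 CPM. Btg1, an antiproliferative gene, had 10 UMIs in 5 nuclei (402 CPM and 23.3 CPM), and Nfib, a nuclear factor of neural progenitors and young neurons, had 2133 CPM and 413 CPM.

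RNA of mature neurons was low in the same nuclei. The 22 synaptic vesicle and mature neuron genes summed to 2978 CPM in shallow members and 8135 CPM in GABA nuclei, with 1 gene higher and 21 lower. Only 15 of the 22 had a UMI in the shallow members, with 74 UMIs in all. Syt1, the calcium sensor of synaptic vesicles, had 885 CPM and 3133 CPM. Rbfox3, the splicing factor known as NeuN, had 1 UMI in the 10 nuclei (40.2 CPM) and 335 CPM in GABA nuclei. Thinned to 1000 UMIs, 2.53% of shallow, 20.6% of middle and 24.7% of deep members would hold an Rbfox3 UMI, against 21.5% to 31.1% of GABA nuclei in the 4 libraries. Unthinned, Rbfox3 was seen in 1 of 10, 16 of 18 and 29 of 29 members.

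Of 17 ionotropic glutamate receptor genes 15 were lower and 2 higher in shallow members (sums of 4667 CPM and 11248 CPM). A UMI was seen there for 12 of the 17. Grin1, the obligatory subunit of NMDA receptors, had 0 UMIs, where 3 UMIs would give 121 CPM, and 357 CPM in GABA nuclei. Of 12 GABA-A receptor subunits 11 were lower, and of 19 sodium and potassium channel genes 15 were lower, with Kcnq5 at 40.2 CPM and 1771 CPM. The 2 post-mortem unfixed nuclei held 12 and 20 of the 56 GABA-A receptor UMIs, both above the GABA level of 4619 CPM. They held 24 and 37 of the 116 glutamate receptor UMIs, and 1 of them lay above the GABA level. The 7 in vivo methanol nuclei stood at 1244 CPM for GABA-A receptors and 2861 CPM for glutamate receptors. Immediate early genes, which neurons transcribe within minutes of stimulation, had 0 UMIs in shallow members and 445 CPM in GABA nuclei. Microglia, vascular and ependymal marker lists (8 genes each) had 0 UMIs in the shallow nuclei as well. GABA nuclei stood at 58.1, 7.79 and 9.33 CPM of these lists, below the 121 CPM that 3 UMIs would give. These counts therefore cannot show a lower level. Oligodendrocyte precursor markers had 12 UMIs (483 CPM, against 88.5 CPM in GABA nuclei), with 1 of 8 genes higher and no nucleus with 2 of the genes. Progenitor and Notch genes had 14 UMIs (563 CPM, against 163 CPM), with 7 of 20 higher and 11 lower. Oligodendrocyte markers had 32 UMIs, 29 of them in the nucleus marked by Scrublet, and stood at 132 CPM without it, against 544 CPM in GABA nuclei.

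**Figure D3:**
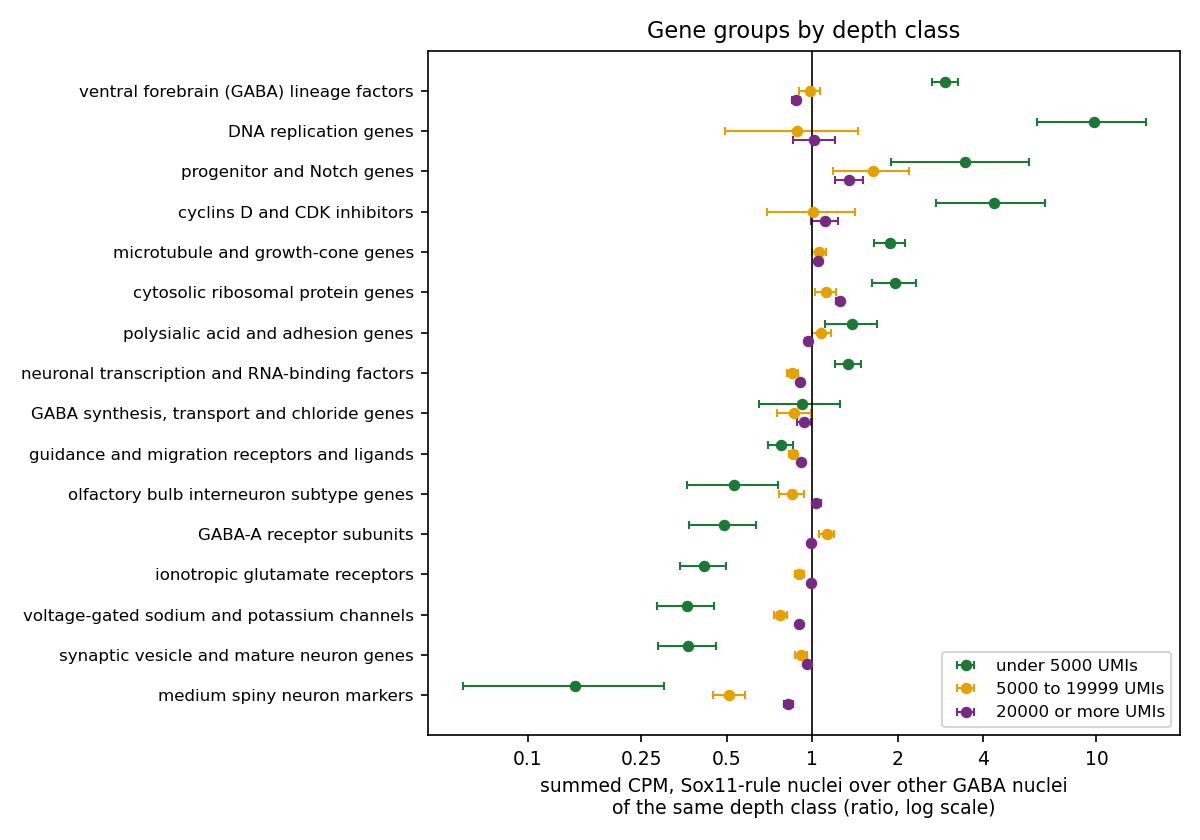
Summed CPM of 16 gene groups in Sox11-rule nuclei over that in other GABA nuclei of the same depth class (ratio, log scale), with exact Poisson intervals of the members' counts. The 10 shallow nuclei (green) depart from 1 in most groups, from ventral forebrain factors (13600 CPM and 4631 CPM) to synaptic genes (2978 CPM and 8135 CPM). The 29 deep nuclei (purple) lie nearer 1, with the intervals of progenitor, ribosomal, and microtubule and growth-cone genes above it. GABA nuclei were picked by RNA of Gad1, Gad2 and Slc32a1, so nothing is read from the group of GABA synthesis and transport genes.

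The 29 deep nuclei were close to GABA nuclei of their depth in most groups. Their ventral forebrain list stood at 1861 CPM and that of GABA nuclei of the same depth at 2127 CPM, the synaptic list at 8818 CPM and 9166 CPM, and the glutamate receptor list at 11605 CPM and 11767 CPM. Tubb3 had 131 CPM and 110 CPM, and Ccnd2 had 49.5 CPM and 40.9 CPM. Ribosomal protein genes stood at 2592 CPM, against 2077 CPM, and 18 of the 29 nuclei lay above the GABA level. Survival and apoptosis genes stood at 288 CPM, against 258 CPM, with 21 nuclei above the GABA level. Microtubule and growth-cone genes stood at 6090 CPM and 5812 CPM (18 nuclei above), and cyclins D and CDK inhibitors at 177 CPM and 160 CPM (16 nuclei above). The sums of the progenitor, immediate early and oligodendrocyte lists were higher too, but most nuclei lay below the GABA level. Progenitor and Notch genes stood at 170 CPM and 126 CPM (median nucleus 115 CPM), immediate early genes at 527 CPM and 394 CPM (median nucleus 277 CPM), and oligodendrocyte markers at 715 CPM and 524 CPM (median nucleus 125 CPM). Of 46 UMIs of vascular and mural markers 34 lay in 1 nucleus, and without it the list stood at 6.98 CPM, against 5.36 CPM. Medium spiny neuron markers stood at 1391 CPM and 1688 CPM. Of 6 marker lists of non-neuronal cells, at least 2 lists with 2 or more detected genes were met in 13 of the 20 deep members (65%) and in 49.2% of the 187 GABA nuclei of that class in the in vivo methanol library. In the post-mortem methanol library they were met in 8 of 9 members (88.9%) and in 69.8% of 116 GABA nuclei. The members were deeper even within the class, with medians of 37864 UMIs against 26890 UMIs in vivo and 100595 UMIs against 25654 UMIs post-mortem, and the part of depth was not tested. Slc17a7, the vesicular glutamate transporter of cortical neurons, had a UMI in 22 deep members (69.8 CPM, against 62.6 CPM in GABA nuclei of that depth). The neuropeptide gene Pnoc had 59 UMIs in 15 nuclei. Npy, another neuropeptide gene, had 187 UMIs in 8 nuclei, 85 of them in 1 nucleus, and the T-cell receptor gene Trbc1 had 15 UMIs in 3 nuclei, 11 of them in 1.

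The 18 nuclei in between resembled GABA nuclei in the ventral forebrain list (2414 CPM and 2460 CPM) and the synaptic list (7476 CPM and 8158 CPM). Against all other nuclei of their depth they were led by Igfbpl1 and Dlx1 of the rule and by genes outside it. With predicted genes left out, the latter were Pax6, Nts, Agt, Sp8, Col6a3, Apobec1, Pcsk6 and Prkcd, in order of ratio. Whether Agt, Col6a3, Apobec1 and Pcsk6 overlap genes on the other strand is not given here. Pax6, a factor of periglomerular and other interneurons, had 16 UMIs in 5 nuclei, or 73.0 CPM, and 2.36 CPM in the other nuclei. Of these 9 lay in 1 nucleus marked by Scrublet, and without it Pax6 stood at 33.7 CPM. Nts, the gene of the neuropeptide neurotensin, had 57 UMIs in 4 nuclei, of which 30 and 25 lay in 2 nuclei of the post-mortem methanol library, and Prkcd, a protein kinase C, 16 UMIs in 6 nuclei. Zic1, a zinc finger factor of medial forebrain neurons, had 86.7 CPM and 12.2 CPM. Medium spiny neuron markers stood at 1077 CPM, against 2106 CPM in GABA nuclei of that depth, with 0 of 8 genes higher.

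**Figure D4:**
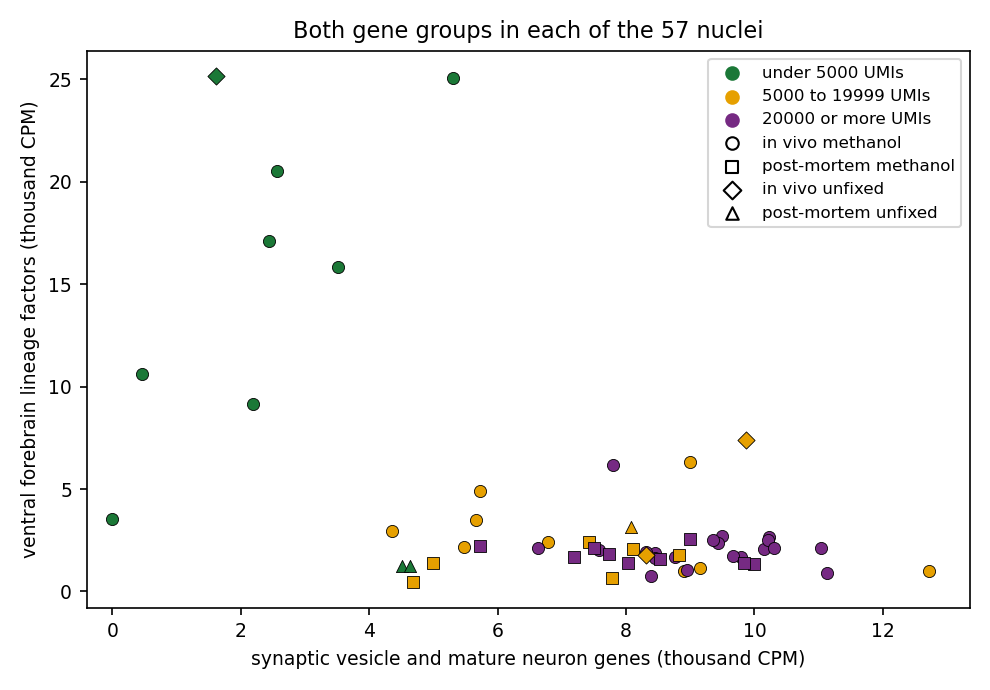
Summed CPM of ventral forebrain lineage factors (vertical) against that of synaptic vesicle and mature neuron genes (horizontal) (axes in units of 1000 CPM), for each of the 57 nuclei; colours give depth classes and symbols libraries. Of the nuclei under 5000 UMIs, the 8 from in vivo libraries lie between 3555 and 25161 CPM on the vertical axis and the 2 post-mortem ones at 1231 and 1235 CPM, while the deeper nuclei crowd at the lower right.

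Dlx1 or Dlx2 was detected in 46 members and neither in 11, all of them in the in vivo methanol library. Those 11 had to reach 4 genes among the other 5, so their Sox4 (11 of 11 nuclei) and Igfbpl1 (10 of 11) follow from the rule. Neurod1, which drives granule neuron differentiation, had 0 UMIs in all 57 nuclei (0 of 57, which allows a share of up to 5.26%), and Prox1, a factor of granule cells and some interneurons, was seen in 1 of the 11 and 16 of the 46. Gad2, a GABA-synthesising enzyme, was seen in 10 of the 11 and 42 of the 46. In the in vivo methanol library the median depth was 21435 UMIs without either Dlx gene and 24322 UMIs with one. The 46 also include all 15 post-mortem methanol nuclei, with a median of 42381 UMIs. The counts of 11 and 46 nuclei above are therefore not matched for depth or library. Leiden clustering of the 57 nuclei gave 2 groups. One of 32 nuclei, 17 of them marked by Scrublet, was led by the oligodendrocyte genes Mag, Ptgds and Aspa. The other of 25 nuclei, 10 of them marked, was led by Sntb1, St8sia6 and Nts. Neither was given a name.

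Mitosis genes outside the rule separated members from the 25 nuclei that met the same criteria with 2 or more mitotic genes by different amounts in the 4 libraries. The 20 genes had 33.9 CPM in members and 539 CPM in the dividing nuclei of the in vivo methanol library, 33.6 CPM and 39.5 CPM in the post-mortem methanol library, 103 CPM and 2118 CPM in the in vivo unfixed library, and 55.4 CPM and 204 CPM in the post-mortem unfixed library. The 12 nuclei of the post-mortem methanol library with 2 or more mitotic genes had a median of 356050 UMIs, and mitosis genes were there near the members' level.

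Fixation was then compared in the summed members, with 972613 UMIs in vivo with methanol and 29259 in vivo unfixed, and 1043122 UMIs post-mortem with methanol and 18065 post-mortem unfixed. Of 8753 genes tested, 165 (1.89%) were at least 2-fold higher with methanol in both harvests and 1071 (12.2%) at least 2-fold lower. These counts lean on the 0.5 counts added before each ratio, which equal 17.1 CPM in the in vivo unfixed sum and 27.7 CPM in the post-mortem unfixed sum but 0.514 CPM and 0.479 CPM in the methanol sums. Within single harvests 12% of the genes were 2-fold higher and 29.7% lower in vivo, and 9.86% higher and 33.4% lower post-mortem, with a median log2 ratio over all genes of -0.35 in vivo and -0.45 post-mortem. With median-of-ratios size factors 414 genes were higher and 557 lower in both harvests, and with the added count scaled to depth 1305 were higher and 451 lower. By exact conditional intervals, 21 genes lay above 1 in both harvests and 29 below. The fixation and harvest comparisons use the same 4 sums and are not independent.

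Genes lower with methanol by these intervals included several that led the shallow nuclei. Dlx6os1 had 150 CPM and 103 CPM in the methanol libraries (in vivo, post-mortem) against 376 CPM and 554 CPM in the unfixed ones, with log2 ratios of -1.38 (-2.21 to -0.29) in vivo and -2.50 (-3.37 to -1.33) post-mortem. Meis2 had ratios of -1.24 (-1.67 to -0.73) and -1.36 (-2.00 to -0.56), but all 18 of its UMIs in the post-mortem unfixed sum lay in 1 nucleus. Erbb4 had ratios of -1.15 (-1.47 to -0.79) and -1.04 (-1.47 to -0.53), and Foxp2, a forkhead factor of striatal and other neurons, -1.78 (-2.32 to -1.14) and -1.55 (-2.36 to -0.47). Of the ventral forebrain list 9 genes were tested, of which 4 were at least 2-fold lower with methanol in both harvests and 0 higher, beside 12.2% and 1.89% of all tested genes. In the post-mortem unfixed sum 1 nucleus held 39 of the 46 UMIs of that list. In other GABA nuclei the list stood at 2518 CPM in vivo and 2310 CPM post-mortem with methanol, and at 2483 CPM and 2257 CPM unfixed. Nuclei under 5000 UMIs made up 1.65% and 0% of the methanol sums and 10.6% and 31.4% of the unfixed sums, in the same order. The 2 such nuclei of the post-mortem unfixed library stood at 1231 and 1235 CPM of the list, below the 1635 CPM of the post-mortem methanol sum. The part of either depth class, or of single nuclei, in these fixation ratios and in those that follow was not tested.

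Of 7 mitochondrially encoded genes tested, 5 were at least 2-fold lower with methanol in both harvests, beside 12.2% of all tested genes. All 15 UMIs of the whole list in the post-mortem unfixed sum lay in 1 nucleus, as did 16 of the 23 in the in vivo unfixed sum. In other GABA nuclei the list stood at 233 CPM in vivo and 247 CPM post-mortem with methanol, and at 323 CPM and 397 CPM unfixed. mt-Cytb, a subunit of respiratory complex III, had 45.2 CPM and 35.5 CPM with methanol and 308 CPM and 221 CPM without, with log2 ratios of -2.83 (-3.82 to -1.55) and -2.79 (-4.12 to -0.69). Higher with methanol was Ptprd, a synaptic receptor phosphatase, with log2 ratios of 1.14 (0.82 to 1.49) in vivo and 1.67 (1.18 to 2.25) post-mortem. Il1rapl2, an interleukin-1 receptor accessory-like protein gene, had 360 and 449 UMIs in the methanol sums and 0 in both unfixed sums. Its intervals began at 1.55 and 1.07 on the log2 scale and had no upper end, and in members under 20000 UMIs its ratio nearer 0 was -0.51.

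Between harvests, 32 genes (0.366%) were at least 2-fold higher in vivo in both fixation pairs and 77 (0.88%) at least 2-fold lower. With median-of-ratios size factors the counts were 70 higher and 74 lower. Within the unfixed pair alone 15.8% of the genes were higher and 23.8% lower. By exact intervals 32 genes lay above 1 in both pairs and 26 below. Dpp10, an auxiliary subunit of A-type potassium channels, had 6578 CPM in vivo and 2132 CPM post-mortem with methanol (log2 1.63, 1.56 to 1.70) and 2871 CPM and 996 CPM unfixed (1.5, 0.78 to 2.35). With the nuclei marked by Scrublet left out the log2 ratio nearer 0 was -0.66, and it was 0.03 in members under 20000 UMIs and 0.78 as a mean of single members, so this call did not hold. In the methanol pair 52.5% of the post-mortem sum came from 3 nuclei and 25.2% of the in vivo sum from 3.

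Of 11 immediate early genes tested in the methanol pair, 5 were at least 2-fold higher in vivo and 1 lower, where 2.2% and 3.63% of all tested genes were, and the median log2 ratio was 0.84, against -0.06 for all tested genes. Egr1 had 68.9 CPM in vivo and 33.6 CPM post-mortem (1.03, 0.43 to 1.67), Arc 78.1 CPM and 38.3 CPM (1.02, 0.46 to 1.62), and Nr4a1 79.2 CPM and 28.8 CPM (1.45, 0.84 to 2.12). Nr4a2, another factor of that family, ran the other way at 6.17 CPM and 45.1 CPM (-2.77, -4.39 to -1.64), with 27 of its 47 post-mortem UMIs in 1 nucleus. The whole list summed to 600.4 CPM in vivo and 398 CPM post-mortem. Without the 3 nuclei holding most of its UMIs in each library, it stood at 456 CPM in vivo and 177 CPM post-mortem. Its median per nucleus was 186 CPM in vivo and 215 CPM post-mortem, so the direction depended on the measure used. The unfixed sums held 5 and 6 UMIs of the whole list, too few for a ratio. Other GABA nuclei had 418 CPM of the list in vivo and 285 CPM post-mortem with methanol, and 403 CPM and 253 CPM unfixed.

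Of 7 oligodendrocyte markers tested in the methanol pair 5 were at least 2-fold lower in vivo, beside 3.63% of all tested genes, among them Mag, a myelin glycoprotein gene, at 24.7 CPM in vivo and 103 CPM post-mortem (-2.03, -2.76 to -1.41), and Mbp at 111 CPM and 271 CPM (-1.28, -1.62 to -0.96). All 4 microglia markers tested were lower by that fold, and the list summed to 48.3 CPM in vivo and 195 CPM post-mortem. Of the post-mortem sums 3 nuclei held 757 of 1008 oligodendrocyte UMIs and 3 held 138 of 203 microglia UMIs. Oligodendrocyte precursor markers stood at 84.3 CPM in vivo and 82.4 CPM post-mortem, with 0 of 2 tested genes called, and astrocyte markers at 427 CPM and 505 CPM, with 1 of 2 lower. In other GABA nuclei the oligodendrocyte list stood at 310 CPM in vivo and 343 CPM post-mortem, and the microglia list at 79.6 CPM and 90.6 CPM.

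Eif2s3y, a translation factor gene of the Y chromosome, had 0 UMIs in both in vivo sums and 178 and 2 UMIs in the post-mortem sums. The same held in all kept nuclei, with 74 UMIs in vivo and 10191 post-mortem with methanol, and 44 in vivo and 5352 post-mortem unfixed. The Y-linked genes Uty and Kdm5d were present in all 4 libraries (91.4, 150, 78.8 and 126 CPM for Uty in the in vivo methanol, post-mortem methanol, in vivo unfixed and post-mortem unfixed libraries). Harvest and animal cannot be told apart in these libraries.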

How the data were processed

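Single-nucleus libraries of 4 groups with 1 sample each were analysed. The authors deposited raw UMI counts for each gene in each barcode. Per the submitters' processing notes, reads were placed on mm10. Aligner, cell caller, annotation and strand setting are not given in the sources used here. Gene positions and opposite-strand overlaps came from the GENCODE annotation of that build, to which 32158 of 32285 gene identifiers matched.

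The members of the set and all gene lists were chosen with earlier results of these data known. UMIs of member nuclei were summed per library or depth class and given as CPM. Genes were compared at 20 UMIs or more over the 4 sums and a mean CPM of at least 10, with 0.5 counts added, and called at 2-fold in both pairs. Libraries were compared without a test, since each group has 1 sample. Intervals are exact Poisson, exact conditional or Clopper-Pearson intervals at 95% and cover counting error only; UMIs are molecules of 1 library each, not replicates. Where a count was 0, 3 counts were used as the limit.

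Scrublet (scanpy 1.11.5) was run on each library at an assumed doublet rate of 6%, and marked nuclei were kept. Clustering used 1000 variable genes scaled within library, 15 principal components, 15 neighbours and resolution 0.5. Named genes were the rule genes, the highest and most different members of each list, the leading genes of the set and the first 8 per direction and comparison. Genes named as leaders of depth classes, and those named for their intervals or for the animal, were chosen after their values were seen. Values without the nucleus holding most UMIs of a list or gene, and medians per nucleus, were added after the values were seen. The procedure for ratios was tested on simulated counts. Alternatives are given in the closing section.

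Some genes are not reported here.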

Additional observations from a re-analysis of the deposited data

Results flagged for a closer look

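The harvest ratio of the share of Sox11-rule nuclei pointed opposite ways in the methanol and the unfixed pair. In vivo harvest held 3.39 times the post-mortem share with methanol (0.471% in vivo and 0.139% post-mortem) and 0.801 times unfixed (0.0168% in vivo and 0.0210% post-mortem). With 1 library per group the difference between the pairs was not tested, and the unfixed ratio rests on 3 nuclei per library with an interval of 0.107 to 5.98.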

How the results depend on the processing

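No paired analysis was possible because each group holds 1 library, and for the same reason no replicate could be left out. Depth limits the unfixed libraries most, with 3 Sox11-rule nuclei each. Shares below are in the order in vivo methanol, post-mortem methanol and, where given, in vivo unfixed and post-mortem unfixed. Without nuclei marked by Scrublet the shares were 0.263% and 0.0712%. Thinned to 2000 UMIs they were 0.0283%, 0% and 0.00337%, and thinned to 1000 UMIs 0.0206%, 0%, 0.000335% and 0.000792%. With at least 3 Sox11 UMIs they were 0.183%, 0.0741%, 0% and 0%, and with at least 1 they were 1.14%, 0.426%, 0.101% and 0.133%. With at least 5 of the 7 genes they were 0.157% and 0.0649%. Counts of genes 2-fold apart with methanol (165 higher, 1071 lower) and in vivo (32 higher, 77 lower) moved as follows. Median-of-ratios size factors gave 414 higher and 557 lower with methanol and 70 higher in vivo. At least 50 UMIs gave 486 lower with methanol and 31 lower in vivo, and at least 5 UMIs with no CPM minimum gave 4368 lower with methanol. With 1 count added there were 28 higher and 2412 lower with methanol and 16 higher in vivo. Without Scrublet doublets there were 488 lower with methanol and 70 higher in vivo. Without opposite-strand genes, a smaller set to test, there were 93 higher and 613 lower with methanol and 45 lower in vivo. The ventral forebrain list in deep nuclei (1861 CPM) was 2120 CPM without Scrublet doublets and 1690 CPM thinned to 1000 UMIs. The synaptic list was 8012 CPM in middle nuclei (7476 CPM) without Scrublet doublets, and in deep nuclei (8818 CPM) it was 8402 CPM without them and 8586 CPM thinned to 1000 UMIs.

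Other alternatives were chosen after seeing the data. Among nuclei under 20000 UMIs the shares were 0.232% and 0.0572%, and their sums gave 73 genes higher and 67 lower with methanol and 60 higher in vivo. A mean of single members gave 189 higher and 238 lower in vivo. With 0.5 counts scaled to depth there were 1305 higher and 451 lower with methanol and 70 higher in vivo. Exact intervals gave 21 higher and 29 lower with methanol and 26 lower in vivo. In the in vivo methanol library alone the ventral forebrain list was 15738 CPM in shallow nuclei (13600 CPM) and 2111 CPM in deep nuclei, and the synaptic list 9331 CPM in deep nuclei. The cause of these moves was not tested, apart from those that follow from fewer genes or nuclei. Methanol gave the higher share within both harvests without Scrublet doublets and at each Sox11 minimum, but not post-mortem after thinning. The 3 Sox11 UMI minimum could not be applied to the gene comparisons, since no unfixed nucleus was left.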
